A study of Mus musculus with 6 samples.

Results

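Expression of 9 genes was followed in mouse liver: 7 encode transcription factors that are held in the membrane of the endoplasmic reticulum (ER), and 2 encode the proteases that release them. They were Creb3, Creb3l1, Creb3l2, Creb3l3, Creb3l4, Atf6, Atf6b, Mbtps1 and Mbtps2. Genes were chosen by symbol in the platform annotation, 1 probe set per gene, and are 9 of 22180 genes named by a probe set with a single symbol. All 9 were measured, and none had a further probe set of its own. The signals came from the livers of 6 mice, 8 weeks old and on normal diet, which all carried the knockout allele Creb3l3tm1.1Sad/J and therefore lacked CREB-H. In 1 group, 3 mice had been injected with a liver-targeting adeno-associated virus that encodes GFP (AAV-GFP, the control), and in the other group 3 mice received the same kind of vector encoding CREB-H-ΔTC (AAV-CREB-H-ΔTC), the active form of CREB-H. Both groups were killed 2 weeks after the injection, and the RNA of each liver went onto 1 array. The sources used here do not name the promoter of the vector, and mice with an intact Creb3l3 gene were not analysed here, so every comparison is between knockout livers.

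The factors of this family are basic leucine zipper (bZIP) proteins with a single membrane-spanning stretch. At rest the stretch keeps them in the ER; after transport to the Golgi they are cut first by site-1 protease and then by site-2 protease, which frees the DNA-binding part to enter the nucleus. ATF6 is known as a sensor of the unfolded protein response, and CREB-H, the product of Creb3l3, as a liver and gut factor of fasting lipid metabolism. A form without the membrane anchor, such as the one supplied here, needs neither protease. The comparison therefore asks which genes differ when the active factor is put back, and the 9 genes are the factor itself, its relatives and its processing machinery.

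Signals are given on the log2 scale, on which a difference of 1 is a doubling. Array medians lay between 4.98 and 5.01. Hepatocyte markers such as Alb averaged 12.9 to 13.1 on every array (7 of 7 measured), whereas the 5 measured pancreatic acinar markers averaged 4.46 to 4.99. The mean of 6 Kupffer cell markers ran from 7.64 to 9.0 with GFP and from 8.22 to 9.16 with CREB-H-ΔTC, and that of 6 endothelial markers from 8.95 to 9.29 and from 9.10 to 9.34. For 4 cholangiocyte markers the ranges were 4.77 to 4.91 and 4.86 to 5.01, and for 6 lymphocyte markers 5.40 to 5.61 and 5.40 to 5.76. No marker passed the test between the groups. Even so, all 6 Kupffer markers (median difference 0.40, and 0.16 to 0.77 with 1 array left out) had a higher mean with CREB-H-ΔTC. So did all 7 stellate cell and fibroblast markers (median 0.19, and 0.06 to 0.27). The same held for 5 of 6 endothelial (median 0.19, and 0.12 to 0.31) and 3 of 4 cholangiocyte markers (0.19, and 0.11 to 0.29). It also held for 4 of 6 lymphocyte (0.25, and 0.13 to 0.39) and 4 of 5 acinar markers (0.12, and -0.10 to 0.22). Without CREB-H-ΔTC replicate 2, the acinar split was 1 higher and 4 lower. The stellate split was 4 higher and 3 lower without CREB-H-ΔTC replicate 1, and the Kupffer split 5 and 1 without GFP replicate 3. Of all probe sets 46.3% were higher, and 50.8% when 1 probe set per gene was taken, as for the markers. The part of these cells in the results was not tested. Y-linked genes (the mean of Kdm5d, Uty and Eif2s3y) read 7.83 on GFP replicate 3 and 7.67 on CREB-H-ΔTC replicate 3, against 3.15 to 3.39 on the other arrays. Xist went the opposite way, with 4.43 and 3.75 on the same arrays against 10.83 to 11.35 on the others. Each group thus held arrays of both kinds, and the labels do not state sex. The arrays with Y-linked signal are marked where they matter. Since the samples are bulk tissue, fewer cells of a type and less RNA per cell cannot be told apart.

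Creb3l3, the gene that was knocked out and supplied by the vector, stood higher on all arrays of the CREB-H-ΔTC group. Its signal (probe set 17243183) was 6.55, 5.93 and 6.40 on GFP replicates 1, 2 and 3 and 6.73, 7.25 and 7.58 on CREB-H-ΔTC replicates 1, 2 and 3. The groups did not overlap, but GFP replicate 1 and CREB-H-ΔTC replicate 1 lay 0.18 apart, less than the spread of either group (SD 0.32 and 0.43, n = 3 each). The means differed by 0.89 (SE 0.25, 95% interval 0.29 to 1.49), a 1.85-fold higher signal. The limma test did not pass after Benjamini-Hochberg adjustment over 41345 probe sets (adjusted p = 0.647), and the exact two-sided permutation test gave p = 0.1, the smallest that 3 against 3 arrays allow. Among all probe sets, 5.23% had every CREB-H-ΔTC array above every GFP array, so this pattern alone is common in these data. The 4 arrays lacking Y-linked signal gave a difference of 0.75, and the 2 arrays that carry it gave 1.17. The GFP arrays of knockout mice still gave signal, and the stretch of transcript covered by the probes is unknown here, so RNA of the disrupted allele and of the vector cannot be told apart.

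**Figure D1:**
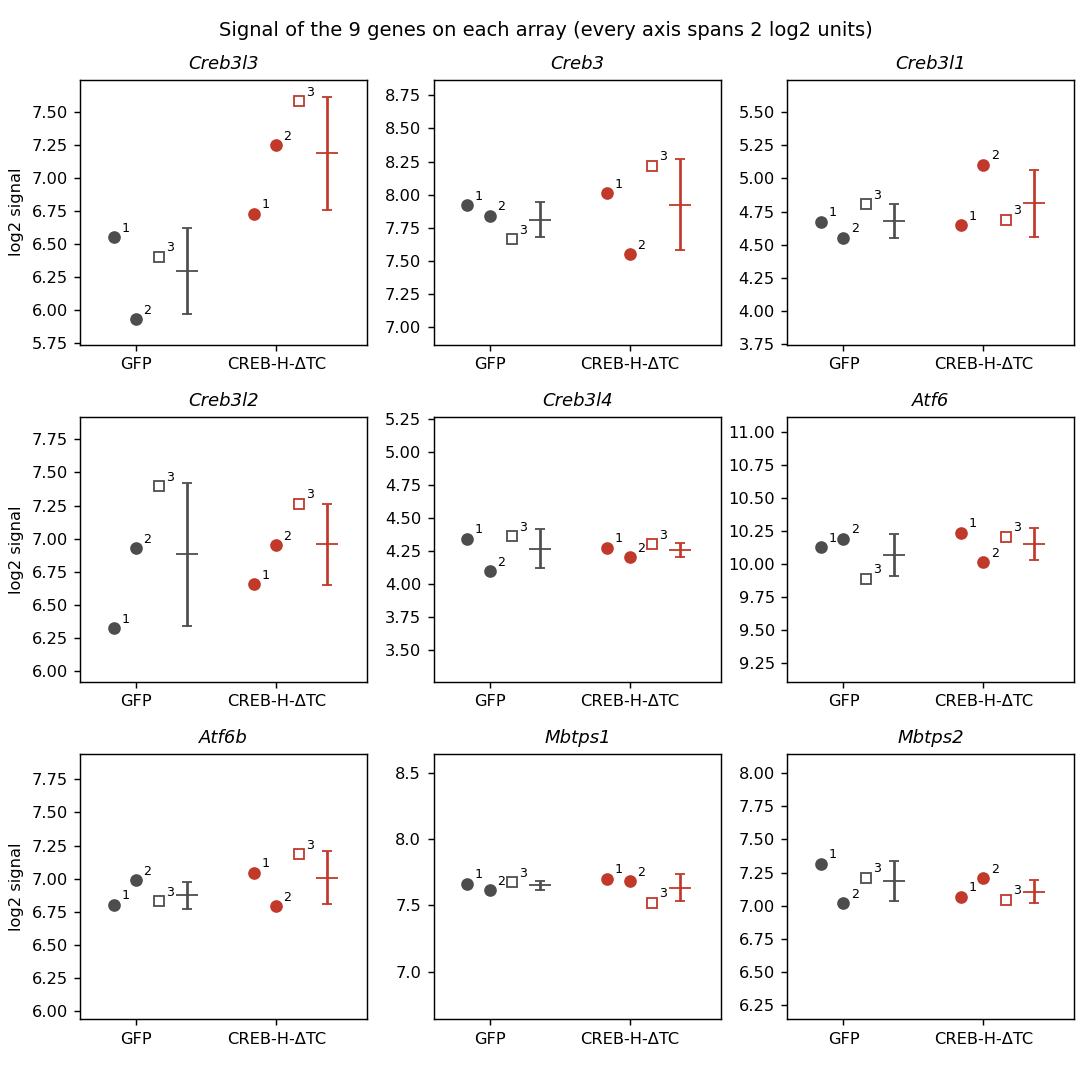
Log2 signal (vertical axes, each spanning 2 log2 units) of the 9 genes on the 6 arrays, GFP in grey and CREB-H-ΔTC in red, with the replicate number beside each point and open squares for the arrays with Y-linked signal; bars are mean ± SD (n = 3). Creb3l3 is the 1 gene of the 9 whose groups do not overlap, and Creb3l2 is highest on the arrays with Y-linked signal of both groups.

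None of the other 8 genes differed beyond the spread between replicates. Their log2 differences lay between -0.08 and 0.14. All 8 intervals contained 0 and all lay within a log2 difference of 1 in either direction, with adjusted p from 0.898 to 0.995 in limma. Counting Creb3l3, none of the 9 passed, against 0.00484% of all probe sets (2 of 41345, Apoa4 and Asic5). Non-overlapping groups were seen in 1 of the 9, or 11.1%, against 12.3% of all probe sets. The 9 genes had a median difference of 0.08. The median was -0.015 over all probe sets and 0.0030 with 1 probe set per gene. As deposited, 6 of the 9 were higher and 3 lower, and the split was 7 to 2 after quantile normalization or median centring, where Creb3l4 took the other sign.

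The closest relatives of CREB-H are the 4 other members of the CREB3 group. Creb3, also known as Luman, is a broadly expressed factor first studied as a partner of the host cell factor HCF-1. It read 7.92, 7.84 and 7.67 on GFP replicates 1, 2 and 3 and 8.01, 7.55 and 8.22 on CREB-H-ΔTC replicates 1, 2 and 3. The CREB-H-ΔTC arrays held both the highest and the lowest value, and the difference was 0.12 (SE 0.19, 95% interval -0.32 to 0.56, adjusted p = 0.938 in limma). The sign rested on the arrays with Y-linked signal. Between these 2 arrays Creb3 was higher with CREB-H-ΔTC by 0.55, whereas the difference among the other 4 arrays was -0.10, and it was -0.03 without CREB-H-ΔTC replicate 3.

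Creb3l1, or OASIS, is known for driving type I collagen genes in bone-forming cells. Its signals were low throughout: 4.67, 4.55 and 4.81 with GFP and 4.65, 5.10 and 4.69 with CREB-H-ΔTC. A single array, CREB-H-ΔTC replicate 2, stood above the rest. The difference was 0.14 (SE 0.15, 95% interval -0.23 to 0.50, adjusted p = 0.907 in limma) and -0.01 without that array. The mean of the 7 stellate cell and fibroblast markers, which include Col1a1 and Col1a2, ran from 7.43 to 7.62 with GFP and from 7.37 to 7.93 with CREB-H-ΔTC, and it too was highest on CREB-H-ΔTC replicate 2, as were the means of the Kupffer (9.16) and pancreatic acinar markers (4.99). The part of these cells in the Creb3l1 signal was not tested.

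Creb3l2, or BBF2H7, controls the secretory coat gene Sec23a in cartilage. Of the 9 genes it varied most between replicates, with a pooled SD of 0.44 against 0.07 for Mbtps1. Its signal was 6.32, 6.93 and 7.39 on GFP replicates 1, 2 and 3 and 6.66, 6.95 and 7.26 on those with CREB-H-ΔTC. In both groups the array with Y-linked signal was the highest, at 7.26 and 7.39 against 6.32 to 6.95 on the other 4. The part of that difference between animals in the spread was not tested. The groups overlapped almost completely, with a difference of 0.08 (SE 0.29, 95% interval -0.61 to 0.76, adjusted p = 0.978 in limma). It was -0.20 without GFP replicate 1 and -0.08 without CREB-H-ΔTC replicate 3.

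Creb3l4 is best known from testis and prostate. It read 4.34, 4.10 and 4.36 with GFP and 4.28, 4.20 and 4.30 with CREB-H-ΔTC, so that all 3 CREB-H-ΔTC arrays lay inside the range of the GFP arrays. The difference was -0.01 (SE 0.11, 95% interval -0.28 to 0.26, adjusted p = 0.995 in limma). It was 0.03 without GFP replicate 1, 0.04 without GFP replicate 3 and 0.02 without CREB-H-ΔTC replicate 2. Creb3l4 and Creb3l1 were the 2 genes of the 9 among the dimmest 50% of all probe sets by mean signal. All 9 lay above the dimmest 25%. Without detection calls it is not known whether the 2 dim probe sets were above background.

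The ATF6 pair gave the same picture, at a mean signal of 10.1 for Atf6 and 6.94 for Atf6b. Atf6, which activates ER chaperone genes, read 10.13, 10.19 and 9.89 with GFP and 10.24, 10.01 and 10.21 with CREB-H-ΔTC. Its difference was 0.08 (SE 0.13, 95% interval -0.22 to 0.38, adjusted p = 0.934 in limma). Atf6b, its paralogue and a weaker activator, read 6.80, 6.99 and 6.83 with GFP and 7.05, 6.79 and 7.18 with CREB-H-ΔTC. The difference was 0.13 (SE 0.13, 95% interval -0.18 to 0.45, adjusted p = 0.898 in limma), the lowest p of the 8 and still far from the threshold. In both genes CREB-H-ΔTC replicate 2 was the lowest array of its group, as it was for Creb3. Between the arrays with Y-linked signal Atf6 was higher with CREB-H-ΔTC by 0.32 and Atf6b by 0.35, whereas the other 4 arrays gave -0.03 and 0.02. Atf6 was -0.01 without GFP replicate 3.

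The proteases showed no difference larger than their spread, and Mbtps1 had the smallest SD of the 9 genes. Mbtps1 encodes site-1 protease, a subtilisin-like enzyme that makes the first cut in the lumen. It read 7.66, 7.62 and 7.68 with GFP and 7.70, 7.68 and 7.52 with CREB-H-ΔTC, a difference of -0.02 (SE 0.10, 95% interval -0.26 to 0.22, adjusted p = 0.988 in limma), which was 0.04 without CREB-H-ΔTC replicate 3. Mbtps2, which is X-linked and encodes the metalloprotease that makes the second cut inside the membrane, read 7.32, 7.02 and 7.21 with GFP and 7.07, 7.21 and 7.05 with CREB-H-ΔTC. Its difference was -0.08 (SE 0.12, 95% interval -0.36 to 0.20, adjusted p = 0.934 in limma). A further probe set, annotated to both Yy2 and Mbtps2, had a mean of 5.28 in each group. As folds, the 95% intervals ran from 0.84 to 1.17 for Mbtps1 and from 0.78 to 1.15 for Mbtps2.

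**Figure D2:**
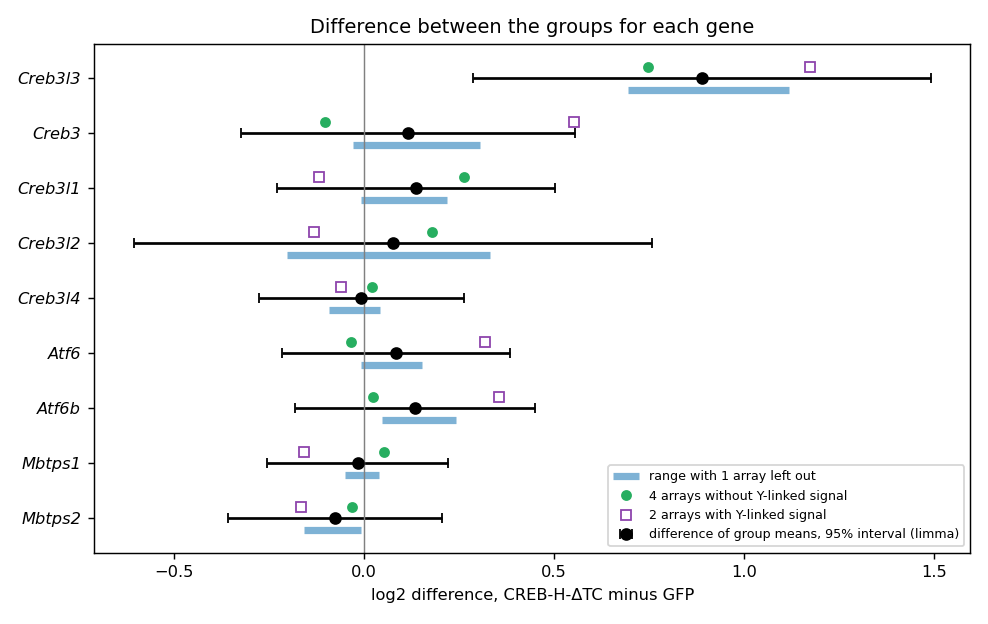
Log2 difference (CREB-H-ΔTC minus GFP, horizontal axis) of each of the 9 genes with its 95% interval from limma (black), the range with 1 array left out (blue), and the values among the 4 arrays without (green) and between the 2 arrays with Y-linked signal (purple squares). Creb3l3 stays between 0.69 and 1.12 with any array left out, whereas the intervals of the other 8 contain 0.

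Start sites were searched for the letters that these factors are known to bind, to show what each gene offers to a CREB-type factor. RefSeq windows (GRCm38.p6) from 250 bases before to 50 after the start were held for 7 of the 9 genes. Creb3l1 and Atf6 had no window and were not searched. The 7 genes make up 10 windows, since Creb3l3 has 2 annotated starts and Creb3l4 has 3. The core of the cyclic AMP response element, TGACG on either strand, was found in 5 of the 10 windows and in 20.8% of all 32851 windows. The 5 windows belong to Creb3l2, Creb3l3, Creb3l4 and Mbtps1. For Creb3l3 the core was in 1 of the 2 windows (chr10:81092542-81092841), and the other (chr10:81098823-81099122) had none. For Creb3l4 it was in 2 of the 3 windows. The full palindrome TGACGTCA, which contains the core, was in none of the 10 and in 1.79% of all. The longer form TGACGTG was also in none of the 10, and in 2.01% of all. The ER stress response element, given further below, was likewise in none, and in 0.119% of all. The matches are shown with 10 bases on either side, read along the gene, with the core in capitals (CGTCA where it lies on the opposite strand).
Creb3l3 (chr10:81092816-81092840, minus strand, core at -239 to -235 from the start): caacatccggTGACGctagacagaa
Creb3l2 (chr6:37442330-37442354, minus strand): cgttccccagTGACGtaaaagaccc
Creb3l4 (chr3:90243351-90243375, minus strand): aactctttgcTGACGagacatcaag
Creb3l4, another start (chr3:90242730-90242754, minus strand): aacggtcccgCGTCAaaggtcccgg
Creb3l4, the same window (chr3:90242599-90242623, minus strand): agccttaagtCGTCAcaaagaaaga
Mbtps1 (chr8:119558819-119558843, minus strand): ggtgccgggcCGTCAggagcgcgca
Of the 4 genes with a match, Creb3l2, Creb3l4 and Mbtps1 had differences of 0.08, -0.01 and -0.02 in the signals above, and Creb3l3 cannot be read this way because the vector supplies it.

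The genes that the factors are known to control were set beside them in 2 lists. Reported CREB-H targets had 13 genes, all measured. Only Apoa4, an apolipoprotein of triglyceride-rich particles, passed the limma test (log2 difference 3.70, SE 0.18, adjusted p = 0.00786). It read 9.71, 9.94 and 9.50 with GFP and 13.53, 13.12 and 13.62 with CREB-H-ΔTC. The call ended when any array other than CREB-H-ΔTC replicate 2 was left out, while the difference stayed between 3.60 and 3.86. Fabp2, a fatty acid carrier, differed by 2.79 (SE 0.28, adjusted p = 0.21), and Apoc2, the cofactor of lipoprotein lipase, by 1.28 (SE 0.19, adjusted p = 0.515). The groups did not overlap, with CREB-H-ΔTC above, in 8 of the 13 targets (61.5%), against 5.23% of all probe sets. The list was drawn up with earlier results of these data known, so this share only describes it and is no independent support. In all, 10 targets were higher and 3 lower, with a median of 0.495. The lower ones were G6pc, a glucose-producing enzyme, at -0.52 (SE 0.23), Hamp, the iron hormone hepcidin, at -0.12 (SE 0.38) and Crp at -0.07 (SE 0.14), which are named here after their values were seen. None of these 3 passed.

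**Figure D3:**
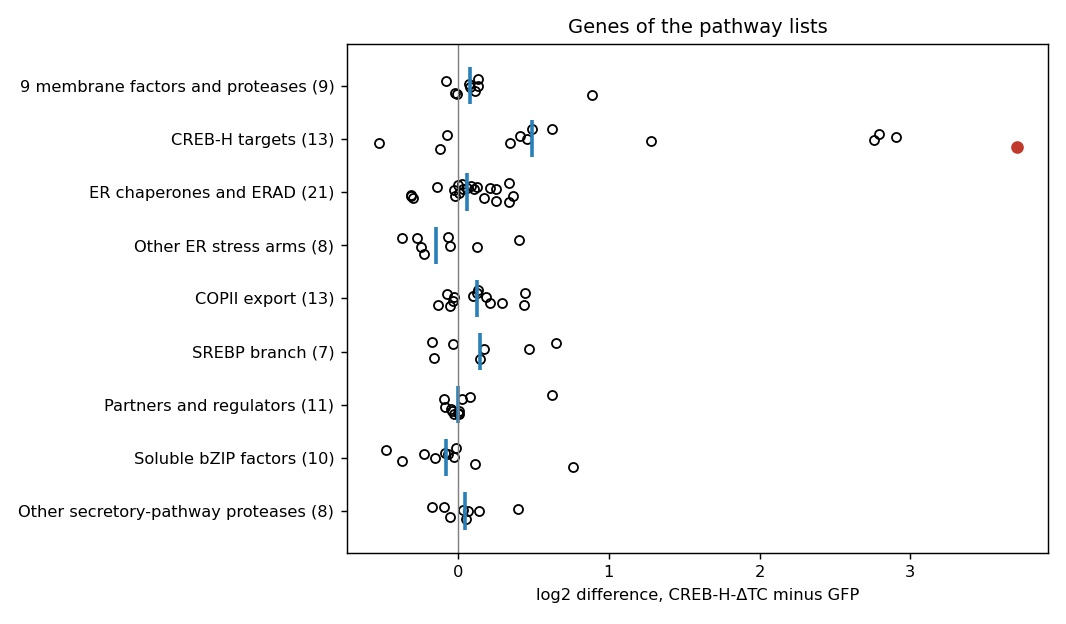
Log2 differences (CREB-H-ΔTC minus GFP, horizontal axis) of the 9 genes and of 8 lists of related genes, 1 circle per measured gene with the number measured in brackets; the filled red circle passed the limma test after adjustment and blue bars are medians. Apoa4, at 3.70, is the 1 gene that passed, and the median of the CREB-H targets, 0.495, is the highest of the lists.

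The ATF6 side was read from 22 ER chaperone and degradation genes, of which 21 were measured. None passed in either direction, and the median was 0.06, with 15 higher and 6 lower. GFP replicate 1 was the lowest array in 14 of the 21, and without it 8 were higher and 13 lower (median -0.04); without CREB-H-ΔTC replicate 2 the split was 10 to 11 (median -0.01). P4hb, the protein disulfide isomerase, had a difference of 0.34 (SE 0.11, adjusted p = 0.667), Dnajb9 one of -0.31 (SE 0.13) and Creld2 one of -0.29 (SE 0.17; -0.47 to -0.18 with 1 array left out). ATF6 is known to act through the ER stress response element, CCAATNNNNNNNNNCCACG on either strand. This motif was in 9 of 20 windows of the listed genes and in 0.119% of all windows. Many genes of the list are known ATF6 targets, so this share only describes the list and is no independent support. The elements of 5 of the 9 are shown with 4 bases on either side and the element in capitals (on the opposite strand in Calr and Creld2).
Hspa5 (chr2:34772021-34772047, plus strand): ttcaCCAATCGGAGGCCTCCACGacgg
Canx (chr11:50325796-50325822, minus strand): ttgaCCAATCACCACGCTCCACGaaga
Pdia6 (chr12:17266487-17266513, plus strand): gagaCCAATGAAAGGCGGCCACGgcgt
Calr (chr8:84847071-84847097, minus strand): aacgCGTGGTCGACCCTCATTGGccca
Creld2 (chr15:88819516-88819542, plus strand): ttctCGTGGCGAGCCTCAATTGGtcca
The 9 genes with the element, singled out after their values were known, had a median difference of -0.02, with 4 higher and 5 lower (5 and 4 after quantile normalization or median centring) and none without overlap, against 12.3% of all probe sets. On the 4 arrays lacking Y-linked signal their median was 0.08, and with 1 array left out it ran from -0.06 to 0.05. The other 12 genes of the list had a median of 0.15, which was 0.0019 without GFP replicate 1 (6 higher, 6 lower).

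Hspa5, which encodes the chaperone BiP and holds ATF6 in the ER, read 9.02, 9.57 and 9.52 with GFP and 8.87, 9.01 and 9.31 with CREB-H-ΔTC. Its groups overlapped, and the difference was -0.31 (SE 0.19, 95% interval -0.76 to 0.14, adjusted p = 0.821 in limma; -0.48 to -0.21 with 1 array left out). Canx and Calr, the lectin chaperones of glycoprotein folding, differed by -0.02 (SE 0.12) and 0.03 (SE 0.14), and the disulfide isomerase Pdia6 by 0.09 (SE 0.18). These 3 signs turned with the array left out, over ranges of -0.11 to 0.05 for Canx, -0.07 to 0.13 for Calr and -0.06 to 0.22 for Pdia6. Hspa5, Canx, Calr and Pdia6 were named for their elements and roles after their values were seen. The 8 genes of the other ER stress arms, IRE1 and PERK, had a median of -0.15, with 2 higher and 6 lower, and none passed. The median was -0.03 without GFP replicate 3 and -0.05 without CREB-H-ΔTC replicate 2, each with 4 higher and 4 lower, and -0.24 without CREB-H-ΔTC replicate 3. Ddit3, the death-associated factor CHOP, read 6.91, 6.82 and 6.69 with GFP and 6.60, 6.39 and 6.31 with CREB-H-ΔTC. Its groups did not overlap, as in the 7.10% of all probe sets that lay below GFP on every array, and its difference of -0.37 (SE 0.12, adjusted p = 0.676) did not pass. Eif2ak3, the sensor PERK, differed by 0.405 (SE 0.20; 0.27 without CREB-H-ΔTC replicate 3 and 0.61 without replicate 2) and Ppp1r15a, the subunit that directs dephosphorylation of eIF2α, by -0.25 (SE 0.14; -0.16 to -0.37 with 1 array left out).

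The route to the Golgi and the proteases beyond it were examined next. None of 13 COPII coat genes, which carry the factors out of the ER, passed, and their median was 0.13 with 8 higher and 5 lower (median 0.02 without CREB-H-ΔTC replicate 3, 0.04 without GFP replicate 1 and up to 0.22 with any other array left out). The lowest unadjusted p belonged to Sec23a (0.295, SE 0.16), Sec24d (0.44, SE 0.27) and Sec16b (0.45, SE 0.28). All 3 rested on CREB-H-ΔTC replicate 3, an array with Y-linked signal, without which they were 0.13, 0.13 and 0.12; Sec24d was 0.66 and Sec16b 0.70 without CREB-H-ΔTC replicate 2. CREB-H-ΔTC replicate 3 was the highest of the 6 arrays in 8 of the 13 genes. Sec23a read 10.48, 10.45 and 10.30 with GFP and 10.60, 10.47 and 11.04 with CREB-H-ΔTC. Creb3l2, which drives it in cartilage, read 7.26 on CREB-H-ΔTC replicate 3 and 7.39 on GFP replicate 3.

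Among 8 measured proteases of the secretory pathway other than the site proteases, none passed and the median was 0.05 (0.0048 to 0.06 with 1 array left out). Furin, the proprotein convertase of the Golgi, read 9.59, 9.62 and 9.62 with GFP and 10.02, 9.90 and 10.10 with CREB-H-ΔTC. Its difference of 0.40 (SE 0.10, adjusted p = 0.623) exceeded the spread of both groups without passing. Sppl3 differed by 0.14 (SE 0.12; 0.05 without GFP replicate 1) and Pcsk6 by -0.17 (SE 0.19; -0.28 to 0.01 with 1 array left out).

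The SREBP factors are cut by the same 2 proteases, so their branch was set beside the 9 genes. Of 7 measured genes of 11, none passed, and the median was 0.15, with 4 higher and 3 lower. It was -0.0017 (3 higher, 4 lower) without GFP replicate 2, 0.03 without CREB-H-ΔTC replicate 2, 0.29 without CREB-H-ΔTC replicate 1 and 0.30 without GFP replicate 3. Srebf1, the factor of fatty acid synthesis, read 5.97, 6.34 and 6.86 with GFP and 7.22, 6.87 and 7.03 with CREB-H-ΔTC. GFP replicate 3 nearly met CREB-H-ΔTC replicate 2, and the difference was 0.65 (SE 0.23, adjusted p = 0.692; 0.44 to 0.89 with 1 array left out). Srebf2, the factor of sterol synthesis, differed by -0.15 (SE 0.17; -0.27 to 0.0082 with 1 array left out) and its target Sqle by 0.47 (SE 0.42; 0.17 without GFP replicate 2 or CREB-H-ΔTC replicate 2, 0.77 without CREB-H-ΔTC replicate 1 and 0.87 without GFP replicate 3).

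Of 11 proteins that bind, retain or degrade the membrane factors, none passed, and the median was 0.00 (-0.04 to 0.03 with 1 array left out). Ppara, the nuclear receptor that acts with CREB-H on fasting genes and also belongs to the targets, had the lowest p. It read 9.21, 9.12 and 9.68 with GFP and 10.04, 9.73 and 10.12 with CREB-H-ΔTC, a difference of 0.63 (SE 0.19, adjusted p = 0.647). Crebzf differed by -0.08 (SE 0.13; -0.14 to 0.02 with 1 array left out) and Nucb1 by 0.08 (SE 0.14; -0.01 to 0.20 with 1 array left out). Among 10 measured bZIP factors without a membrane anchor none passed, and 8 were lower (6 to 8 with 1 array left out). The median was -0.08, with a range of -0.20 to -0.06. Atf5 differed by 0.76 (SE 0.27; 0.43 without CREB-H-ΔTC replicate 3) and Crem, a relative of CREB, by -0.48 (SE 0.19). Neither passed in limma (adjusted p = 0.693 and 0.712).

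The pattern of Creb3l3 over the 6 arrays was compared with that of 17966 genes. Each gene was centred on its own mean, and likeness was the root mean square of the differences of the 6 log2 values, so that a gene with a much larger change counts as unlike. The nearest were Krt25 (0.18), the magnesium transporter family gene Slc41a3 (0.20), Myh10 (0.23), Camk1d (0.23) and Zfp980 (0.24). Krt25, a keratin of the hair follicle, read 4.04, 3.66 and 4.28 with GFP and 4.37, 4.73 and 4.90 with CREB-H-ΔTC, which is a dim signal. None of the 5 passed the limma test. The other 8 genes of the family and its proteases lay at 0.48 to 0.58, with Creb3l1 the nearest at rank 2305. Of the CREB-H targets, Ppara came nearest at 0.36 (rank 141), whereas Apoa4 lay at 1.47 because its change was larger.

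Among the 3 mice that received the factor, several targets were not ordered as Creb3l3 was. Creb3l3 was lowest on CREB-H-ΔTC replicate 1, yet Fabp2, Apoc2 and Apoa4 were lowest on CREB-H-ΔTC replicate 2, as were Cidec and Fgf21, which were named after their values were seen. Fabp2 read 10.39, 9.70 and 10.78 on replicates 1, 2 and 3, Apoc2 10.78, 10.27 and 10.93, and Cidec, which enlarges lipid droplets, 8.98, 7.50 and 10.34. The array with Y-linked signal was the highest in each, and also the highest for Creb3l3. Other targets rose from replicate 1 to replicate 2, as Creb3l3 did, and they too were named after their values were seen. Pck1 went from 12.92 to 13.02, G6pc from 11.12 to 11.71, Apcs from 8.49 to 10.20 and Hamp from 13.46 to 13.52. With 3 arrays no relation was computed.

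**Figure D4:**
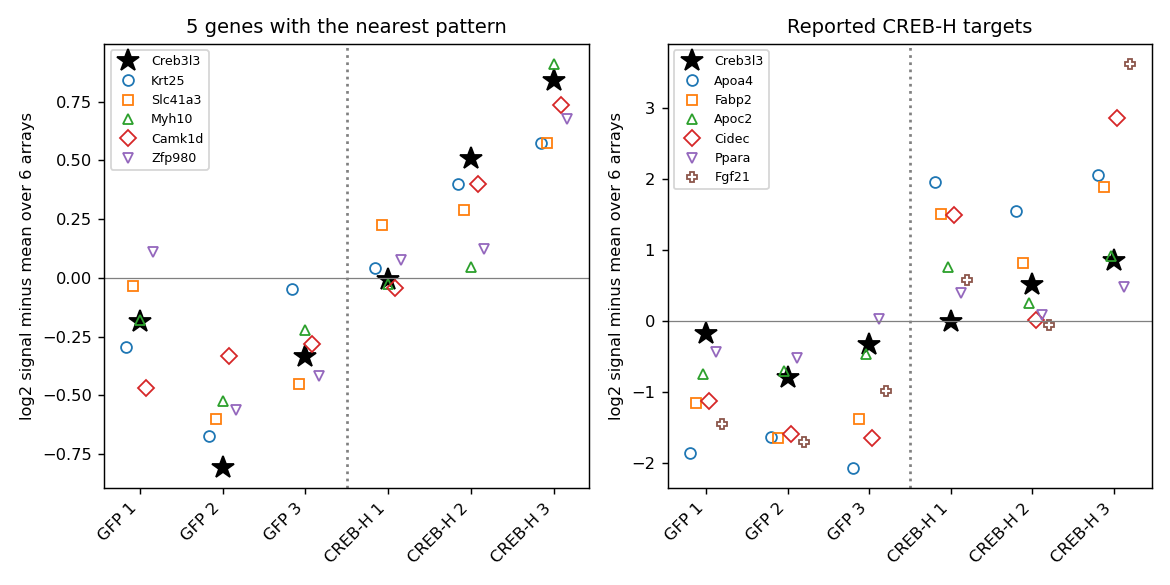
Log2 signal minus each gene's mean over the 6 arrays (vertical axes) for Creb3l3 (stars), the 5 genes with the nearest pattern (left) and 6 reported CREB-H targets (right), array by array. On CREB-H-ΔTC replicate 2 the 6 targets shown fall below their values on replicate 1, whereas Creb3l3 is higher there, at 7.25 against 6.73. Pck1, G6pc, Apcs and Hamp, which are not shown, are also higher on replicate 2.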

How the data were processed

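Total RNA of 6 livers was converted to biotin-labelled cDNA, 1 array each, per the labels. The authors deposited 1 log2 signal for every probe set and array. The submitters' processing notes name the Transcriptome Analysis Console; its version, the summarisation and the normalization are not stated there, and values from 1.42 to 13.9 fit a log2 scale. Scanner files were not used here, so detection and batches could not be examined. Of 41345 probe sets 23521 had 1 gene symbol, 1814 several and 16010 none; for genes with more than 1, that with the highest mean was used. CREB-H-ΔTC was tested against GFP with limma 3.58.1, run in R 4.3.3 (no trend, group as the single term, 41345 probe sets, two-sided, Benjamini-Hochberg, threshold 0.05), tested on simulated data first. Precision is limited by the number of arrays. The limma p-values weigh the difference of group means against the spread within the groups of these 6 mice, moderated over all probe sets. The 15 lists held 137 genes, 127 of them measured. Named were the 9 genes, up to 3 genes of each pathway list with the lowest unadjusted p, probe sets that passed, and the 5 nearest patterns. Hspa5, Canx, Calr, Pdia6, Cidec, Fgf21, Pck1, G6pc, Apcs, Hamp and Crp were added outside this rule after their values were seen. Members, lists and alternatives were chosen with earlier results of these data known. Alternatives were other scaling, filters on dim probe sets, limma-trend, array weights, a replicate block, Y-linked signal (mean above 5), probe set choice and leaving out each array. Figures used matplotlib 3.10.9.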

Additional observations from a re-analysis of the deposited data

How the results depend on the processing

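The difference of Creb3l3 kept its sign and stayed short of the threshold under all 18 alternatives with a test (adjusted p 0.445 to 0.807), and ran from 0.69 to 1.12 with 1 array left out. No other gene of the 9 passed under any alternative; Creb3l1 and Creb3l4 were left out by the filter on the dimmest 50% of probe sets. Signs of near-zero differences turned. Creb3l4 was 0.022 after quantile normalization, 0.010 after median centring, 0.021 with array weights and 0.020 on the 4 arrays without Y-linked signal; Mbtps1 was 0.0087 with array weights and 0.052 on those 4 arrays; Creb3 was -0.10 and Atf6 -0.035 on them. With 1 array left out, ranges were -0.030 to 0.30 for Creb3, -0.0092 to 0.22 for Creb3l1, -0.20 to 0.33 for Creb3l2, -0.093 to 0.040 for Creb3l4, -0.0080 to 0.15 for Atf6 and -0.051 to 0.040 for Mbtps1. Atf6b (0.05 to 0.24) and Mbtps2 (-0.16 to -0.0098) kept their signs. Of the pathway lists, the medians of the ER chaperones, the SREBP branch and the partners changed sign with 1 array left out. The number of probe sets passing was 2 as deposited, 3 with 1 probe set per gene or with a gene's probe sets averaged, 1 with a term for Y-linked signal, 0 on the 4 arrays without it and 0 to 2 with 1 array left out; unadjusted p below 0.05 was then reached by 2335 or more. With the replicate number as a block 0 passed (3224 unadjusted), and Apoa4 had adjusted p = 0.243. Same-numbered arrays correlated in their deviations at 0.078, 0.127 and 0.330, and differently numbered arrays at -0.232 to 0.159. All same-numbered values were thus positive, and that of replicate 3, the array with Y-linked signal in both groups, was the highest of all pairs. Among arrays without Y-linked signal, the differently numbered pairs were also positive, at 0.121 and 0.159. Pairs of an array with and an array without Y-linked signal were all negative, from -0.232 to -0.161. The labels name no pairing of the mice, so the main test used none, and whether the numbers pair them was not tested. Detection calls were not used, so depth of signal over background is unknown.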
